A study of Arabidopsis thaliana with 18 samples.

Results

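Of 16548 genes measured in Arabidopsis thaliana seedlings, 5 are described here, the receptor kinase loci AT1G51830, AT1G51840, AT1G51850, AT1G05700 and AT3G46370. They belong to subfamily I of the leucine-rich-repeat receptor kinases, a list of 46 loci of which 39 were measured. The 5 were named as loci, chosen with their values on these arrays known, and each is read from its brightest feature that the platform annotation assigns to 1 gene. Their changes with treatment and between genotypes are therefore given as descriptions with no test, and tests are given only for other genes.

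Kinases of subfamily I sit in the plasma membrane. They carry a malectin-like region and a short leucine-rich-repeat region outside the cell, a single membrane span, and a kinase domain inside. FRK1 and IOS1, both on the list, are known from immune signalling, where FRK1 is a widely used reporter of the response to bacterial flagellin and IOS1 acts with pattern-recognition receptors. RHS6 and RHS16, also on the list, take their names from expression in root hairs. FRK1, IOS1, RHS6 and RHS16 are not analysed here, and the files give no symbol for any of the 5 loci.

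The study set crf6 seedlings, CRF6oe seedlings (labelled as overexpressing CRF6, Cytokinin Response Factor 6, an AP2/ERF transcription factor) and WT (Col-0) seedlings against each other under 3 conditions. Seedlings 10 days old were floated on 3 mM MES buffer for 1 h and then given 20 mM H2O2 for 6 h, 2 µM of the cytokinin benzyladenine (BA) for 6 h, or neither. All of the solutions, the untreated one included, contained 0.2% DMSO. Each of the 9 groups had 2 arrays, 18 in all. The labels give neither the crf6 allele nor the promoter or number of lines of CRF6oe, the level of CRF6 is not analysed here, and nothing says that the 2 replicates of a group were separate plantings, so the p-values reflect only how far these arrays spread, and that spread may be technical.

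Replicate arrays correlated at 0.977 to 0.991 over all genes, and CRF6oe arrays stood apart from the rest at 0.917 to 0.947. Array medians lay between 4.63 and 4.98 on the log2 scale. The number of arrays limits the precision: the median standard error was 0.23 log2 units for a difference between 2 groups. The fitted SD of AT1G51840, AT1G51850 and AT3G46370 exceeded that of 98.8%, 99.2% and 98.8% of genes, that of AT1G51830 87.9% and that of AT1G05700 80.0%. No detection calls were used, so whether the lowest values exceeded background was not tested. Whole seedlings were sampled, so fewer cells of a type and less RNA per cell cannot be told apart. Of the markers for root tissues and for green shoot tissue, 0 of 6 each were measured, and the seedling label was not checked on them.

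The 3 neighbours on chromosome 1, AT1G51830, AT1G51840 and AT1G51850, were lowest under H2O2 in every genotype. Their BA changes were smaller, between -1.01 and 0.02 log2 units over the 3 genotypes. AT1G05700 was lower under H2O2 and under BA in crf6 and WT, and was already low in untreated CRF6oe seedlings. AT3G46370 had its highest mean level in WT in each condition, and in WT its mean was higher with BA by 1.02 ± 0.49.

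AT1G51830 had log2 levels of 3.63 and 3.99 in H2O2-treated crf6 seedlings, 7.88 and 7.89 in BA-treated crf6 seedlings, and 7.98 and 8.11 in untreated crf6 seedlings. In CRF6oe its levels were 5.85 and 5.72 with H2O2, 8.34 and 7.05 with BA, and 7.66 and 8.16 untreated. In WT they were 4.46 and 4.53 with H2O2, 7.57 and 7.93 with BA, and 8.17 and 8.58 untreated. All 6 H2O2 arrays lay below all 12 others, and among the 6 the order was CRF6oe, WT, crf6 with no overlap. Here and for the other loci, the share of all genes whose arrays separate this way was not counted. The crf6 minus WT difference under H2O2 was -0.68 ± 0.32, in a comparison where 0% of all genes were called. The log2 change with H2O2 was -4.23 ± 0.32 (SE) in crf6, an 18.8-fold lower level, and -3.88 ± 0.32 in WT, a 14.7-fold lower level. In both genotypes this was the lowest change of all 16548 genes, and these changes were among the values known when the locus was chosen.

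In CRF6oe the log2 change of AT1G51830 with H2O2 was -2.13 ± 0.32, a 4.37-fold lower level. It ran from -2.38 to -1.88 when 1 of the 4 arrays was left out. The BA change in CRF6oe was -0.21 ± 0.32. BA-treated CRF6oe replicate 1 lay 1.29 above replicate 2, and leaving out either of the 2 gave changes of -0.86 and 0.43, so the direction of the BA change was not settled.

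AT1G51840 had log2 levels of 3.62 and 4.26 in H2O2-treated, 7.48 and 7.31 in BA-treated, and 7.55 and 7.99 in untreated crf6 seedlings. In CRF6oe its levels were 5.19 and 6.52 with H2O2, 9.03 and 7.25 with BA, and 8.08 and 8.91 untreated. In WT they were 4.48 and 4.53 with H2O2, 7.56 and 8.03 with BA, and 8.22 and 8.53 untreated. The H2O2 arrays again lay below all others, and the 2 CRF6oe arrays under H2O2 lay above those of crf6 and WT. The log2 change with H2O2 was -3.83 ± 0.49 in crf6 and -3.87 ± 0.49 in WT. In CRF6oe it was -2.64 ± 0.49, a 6.25-fold lower level.

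AT1G51850 had log2 levels of 3.15 and 3.12 in H2O2-treated, 5.66 and 5.68 in BA-treated, and 5.57 and 6.61 in untreated crf6 seedlings. In CRF6oe its levels were 4.86 and 4.70 with H2O2, 7.04 and 5.30 with BA, and 6.03 and 6.27 untreated. In WT they were 3.75 and 2.44 with H2O2, 6.01 and 5.45 with BA, and 7.41 and 6.07 untreated. The groups with H2O2 were the 3 lowest, and those of crf6 and WT overlapped. The log2 change with H2O2 was -2.95 ± 0.54 in crf6 and -3.64 ± 0.54 in WT. In CRF6oe it was -1.37 ± 0.54. In WT replicate 1 was above replicate 2 by 1.31 with H2O2, 0.56 with BA and 1.34 untreated.

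**Figure D1:**
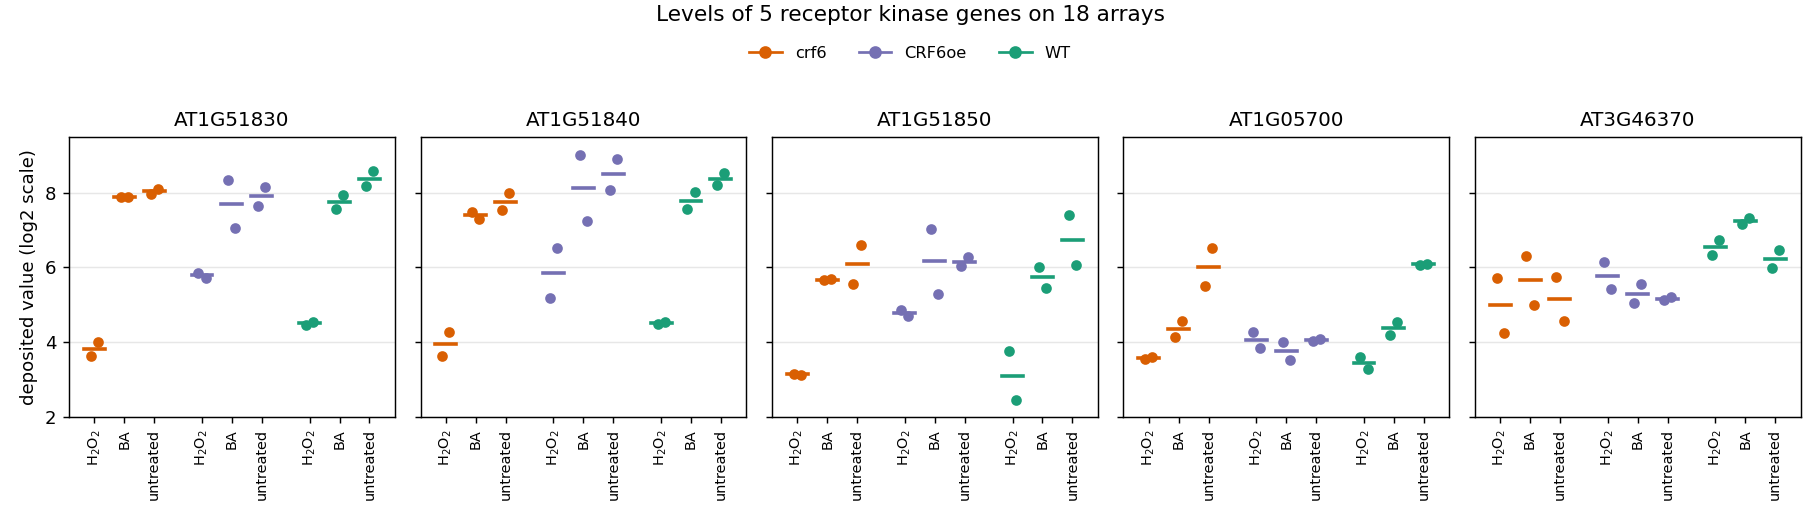
Log2 level of each of the 5 loci (panels) on each array, by treatment and genotype. Points are the 2 arrays of a group and bars their mean. The 3 chromosome 1 neighbours drop under H2O2 in every genotype, AT1G05700 is high only in untreated crf6 and WT, where its 4 arrays lie between 5.50 and 6.52, and AT3G46370 is highest in WT.

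AT1G05700 had log2 levels of 3.54 and 3.59 in H2O2-treated, 4.14 and 4.56 in BA-treated, and 5.50 and 6.52 in untreated crf6 seedlings. In CRF6oe its levels were 4.26 and 3.83 with H2O2, 3.99 and 3.52 with BA, and 4.02 and 4.08 untreated. In WT they were 3.61 and 3.28 with H2O2, 4.20 and 4.53 with BA, and 6.06 and 6.10 untreated. Untreated crf6 and WT arrays stood above all 14 others, with no overlap. The log2 change with H2O2 was -2.44 ± 0.29 in crf6 and -2.64 ± 0.29 in WT, and with BA it was -1.66 ± 0.29 and -1.72 ± 0.29, levels 3.16-fold and 3.29-fold lower. The H2O2 and BA comparisons of a genotype share its untreated arrays.

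In CRF6oe, the log2 change of AT1G05700 was 0.00 ± 0.29 with H2O2 and -0.30 ± 0.29 with BA. The 95% interval of the H2O2 change ran from -0.62 to 0.61. Untreated CRF6oe arrays already lay at 4.02 and 4.08, and the lowest array of this locus at 3.28. A fall as large as that of crf6 or WT would have passed below that array. The smaller change in CRF6oe therefore cannot be told apart from its low untreated level. In untreated seedlings the CRF6oe level was 2.03 ± 0.29 log2 units below WT, and under H2O2 it was 0.60 ± 0.29 above WT. The difference of the H2O2 responses, CRF6oe minus WT, was 2.63 ± 0.41, with an interval of 1.76 to 3.50. The WT response helped to choose the gene.

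AT3G46370 had log2 levels of 5.72 and 4.24 in H2O2-treated, 6.32 and 5.00 in BA-treated, and 5.75 and 4.56 in untreated crf6 seedlings. In CRF6oe its levels were 6.14 and 5.42 with H2O2, 5.04 and 5.56 with BA, and 5.12 and 5.20 untreated. In WT they were 6.35 and 6.73 with H2O2, 7.16 and 7.33 with BA, and 5.99 and 6.47 untreated. The crf6 range over conditions was 4.24 to 6.32, the CRF6oe range 5.04 to 6.14 and the WT range 5.99 to 7.33. The crf6 minus WT differences were -1.56 ± 0.49 with H2O2, -1.59 ± 0.49 with BA and -1.08 ± 0.49 untreated, and the CRF6oe minus WT differences were -0.76 ± 0.49, -1.95 ± 0.49 and -1.07 ± 0.49. No test is given for these, since the locus appears to have been listed for them.

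One replicate carried much of the crf6 difference of AT3G46370. In crf6, replicate 2 was below replicate 1 by 1.48 with H2O2, 1.32 with BA and 1.19 untreated. Within replicate 1 the crf6 minus WT differences were -0.63, -0.84 and -0.24, and within replicate 2 they were -2.48, -2.33 and -1.91, a split looked for after the values were seen. The H2O2 change in CRF6oe was 0.62 ± 0.49, in crf6 -0.17 ± 0.49 and in WT 0.31 ± 0.49. The BA change was 0.14 in CRF6oe, 0.50 in crf6 and 1.02 in WT, each ± 0.49.

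The genotypes were next compared within a condition for the chromosome 1 neighbours. Under H2O2 the CRF6oe minus WT differences were 1.29 ± 0.32 for AT1G51830, 1.35 ± 0.49 for AT1G51840 and 1.68 ± 0.54 for AT1G51850. Untreated, they were -0.46, 0.12 and -0.59 with the same standard errors, and under BA -0.05, 0.35 and 0.44. The 2 CRF6oe arrays lay above both WT arrays under H2O2 for each of the 3 loci. The share of all genes that do so was not counted. In this comparison 14.6% of all genes were called higher in CRF6oe and 14.9% lower. Leaving out 1 array moved the H2O2 difference to between 1.22 and 1.35 for AT1G51830, between 0.68 (without CRF6oe replicate 2) and 2.01 for AT1G51840, and between 1.02 (without WT replicate 2) and 2.33 for AT1G51850. The difference of the H2O2 responses, CRF6oe minus WT, was 1.75 ± 0.45, 1.22 ± 0.70 and 2.27 ± 0.77 for the 3 loci. The intervals ran from 0.79 to 2.71 for AT1G51830, -0.27 to 2.72 for AT1G51840 and 0.63 to 3.91 for AT1G51850. They describe the spread and are no test, because the WT responses were known when the loci were chosen. The crf6 minus WT differences under H2O2 were -0.68, -0.57 and 0.03, and those of the H2O2 responses -0.35 ± 0.45, 0.04 ± 0.70 and 0.69 ± 0.77.

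H2O2 was also set against BA directly within each genotype. For AT1G51830 the log2 difference, H2O2 minus BA, was -4.07 in crf6, -1.91 in CRF6oe and -3.25 in WT, each ± 0.32. For AT1G51840 it was -3.45, -2.29 and -3.29 (± 0.49), and for AT1G51850 -2.53, -1.39 and -2.64 (± 0.54). The neighbours were thus lower under H2O2 than under BA in every genotype. In CRF6oe, leaving out 1 array moved the differences to between -2.56 and -1.27 for AT1G51830, -3.17 and -1.40 for AT1G51840, and -2.27 and -0.52 for AT1G51850, the values nearest 0 being those without BA-treated replicate 1. For AT1G05700 it was -0.78 in crf6, 0.29 in CRF6oe and -0.92 in WT (± 0.29).

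Whether the 3 neighbours carry separate signals was examined next, because close relatives side by side can share hybridisation. The RefSeq annotation places 0 genes between AT1G51830 and AT1G51840 and 0 between AT1G51840 and AT1G51850. Over the 18 arrays AT1G51830 and AT1G51840 correlated at 0.97, AT1G51830 and AT1G51850 at 0.92, and AT1G51840 and AT1G51850 at 0.92. The arrays share the H2O2 response, so the deviations of each array from its group mean were also compared. These correlated at 0.79 for AT1G51830 and AT1G51840, and at 0.38 for each pair that includes AT1G51850. Without the 2 BA-treated CRF6oe arrays the 3 values were 0.54, -0.31 for AT1G51830 with AT1G51850, and -0.08 for AT1G51840 with AT1G51850. Deviations of AT1G05700, which is not a neighbour, correlated with those of AT1G51830, AT1G51840 and AT1G51850 at 0.46, 0.26 and 0.57. Without the same 2 arrays these values were 0.32, 0.02 and 0.47.

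As a yardstick, 8307 pairs of adjacent genes on the array had a median correlation of 0.055 over the 18 arrays and of 0.052 in the deviations. The pair AT1G51830 and AT1G51840 was reached or passed by 0.0963% of them over the arrays and by 0.927% in the deviations, and AT1G51840 and AT1G51850 by 20.0% in the deviations. The loci were chosen with their H2O2 falls known, so a small share over the arrays follows from the choice. In the deviations the 95th percentile of the adjacent pairs was 0.63. Without the BA-treated CRF6oe arrays AT1G51830 and AT1G51840 gave 0.54, and the yardstick was not recomputed without them. The per-array difference, AT1G51830 minus AT1G51840, ran from -0.27 to 0.58 in crf6, from -0.80 to 0.66 in CRF6oe and from -0.09 to 0.04 in WT. The 2 features therefore gave nearly the same value on every WT array and differed by up to 0.80 on a CRF6oe array. Whether they read the same transcript was not tested, since no probe sequences were used here.

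**Figure D2:**
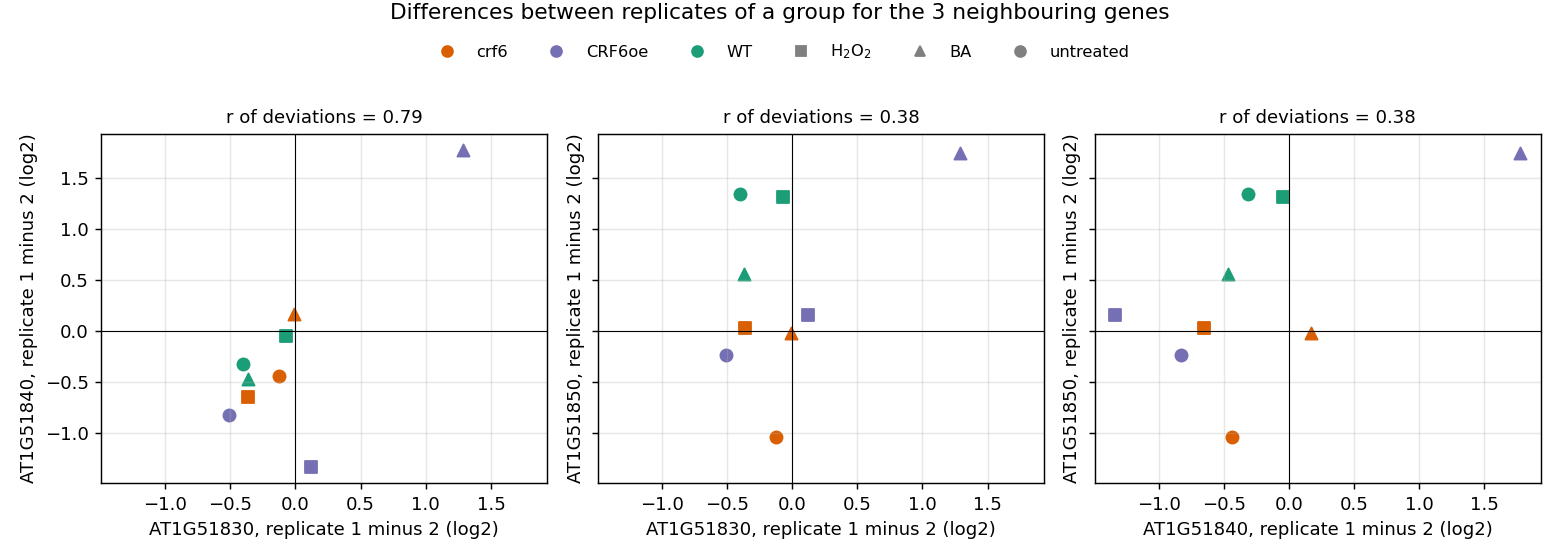
Replicate 1 minus replicate 2 in log2 units for pairs of the neighbours, one point a group. AT1G51830 and AT1G51840 differ the same way between replicates in 7 of the 9 groups. AT1G51830 and AT1G05700, which is not a neighbour and is not drawn, do so in 8. The BA-treated CRF6oe group lies far from 0 for all 3 neighbours (1.29, 1.77 and 1.74).

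The neighbouring receptor kinases were read in chromosome order to see how far the H2O2 change extends. From AT1G51790 to AT1G51910 the annotation lists 17 genes, of which 13 are on the subfamily list and 11 were measured. AT1G51860, next to AT1G51850, fell with H2O2 by 2.00 ± 0.36 in crf6 (limma, adjusted p = 0.0083) and by 2.57 ± 0.36 in WT (9.17e-04). In CRF6oe its change was -1.17 ± 0.36, which did not pass the test (adjusted p = 0.0985). AT1G51790 changed by -1.36 ± 0.42 in crf6 and -1.39 ± 0.42 in WT, neither called. The remaining 6 loci, from AT1G51805 to AT1G51910, had changes between -1.02 and 0.68 with 0 calls in any genotype.

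**Figure D3:**
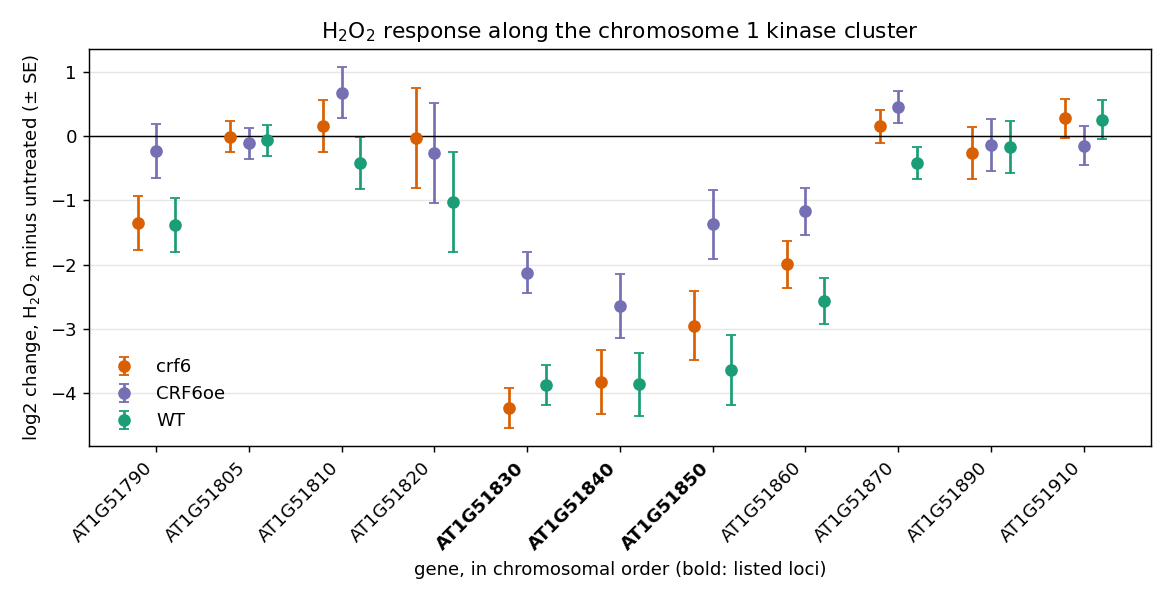
Log2 change with H2O2 (H2O2 minus untreated, error bars the standard error of the fit) of the 11 measured subfamily I loci in chromosome order, in crf6, CRF6oe and WT. AT1G51830 to AT1G51860 lie lowest in every genotype, with values between -4.23 and -1.17, and the CRF6oe values are nearer to 0.

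The other 34 measured genes of the subfamily were tested in each comparison. With H2O2, 5 of them fell and 0 rose in crf6, where 1.09% of all genes were called lower and 0.864% higher, and 5 fell and 0 rose in WT, where 1.37% were called lower and 1.5% higher. In CRF6oe 0 of the 34 passed limma's test, with 7 at an unadjusted p under 0.05, where 2.62% of all genes were called in either direction. Their median change was -0.08 in crf6, 0.07 in CRF6oe and -0.29 in WT, against 0.01, 0.05 and -0.02 for all genes. AT2G28960 fell by 2.54 ± 0.29 in crf6 (adjusted p = 2.97e-04) and by 2.77 ± 0.29 in WT (7.36e-05), and AT1G07560 fell by 1.63 ± 0.29 (0.0072) and by 2.54 ± 0.29 (1.68e-04). AT2G28970 fell by 1.45 ± 0.33 in crf6 (0.0342) and by 1.56 ± 0.33 in WT (0.0157).

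AT2G28990 fell by 2.22 ± 0.49 in crf6 (adjusted p = 0.0302), and its WT change of -1.87 ± 0.49 was not called (0.0587). AT2G14510 fell by 1.17 ± 0.29 in WT (0.0458), and its crf6 change of -0.73 ± 0.29 was not called (0.400). Leaving out each of the 4 arrays in turn kept the calls of AT2G28960 in crf6 and of AT1G07560, AT1G51860 and AT2G28960 in WT. AT2G28970 in crf6 and AT2G14510 in WT were lost whichever array was left out (adjusted p up to 0.358 and 0.362). The calls of AT1G07560, AT1G51860 and AT2G28990 in crf6 and of AT2G28970 in WT were each lost without at least 2 of the arrays (up to 0.128, 0.104, 0.263 and 0.134). Newly called genes included, the H2O2 counts were 1 to 3 in crf6 and 3 to 5 in WT when 1 array was left out.

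With BA, 0 of the 34 genes passed limma's test in any genotype, with 1 in crf6, 1 in CRF6oe and 5 in WT at an unadjusted p under 0.05. Few genes of any kind did: 0.236% in crf6, 0.212% in CRF6oe and 0.163% in WT were called in either direction. AT1G07560 had the largest such change in WT at -1.42 ± 0.29 (adjusted p = 0.0695).

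**Figure D4:**
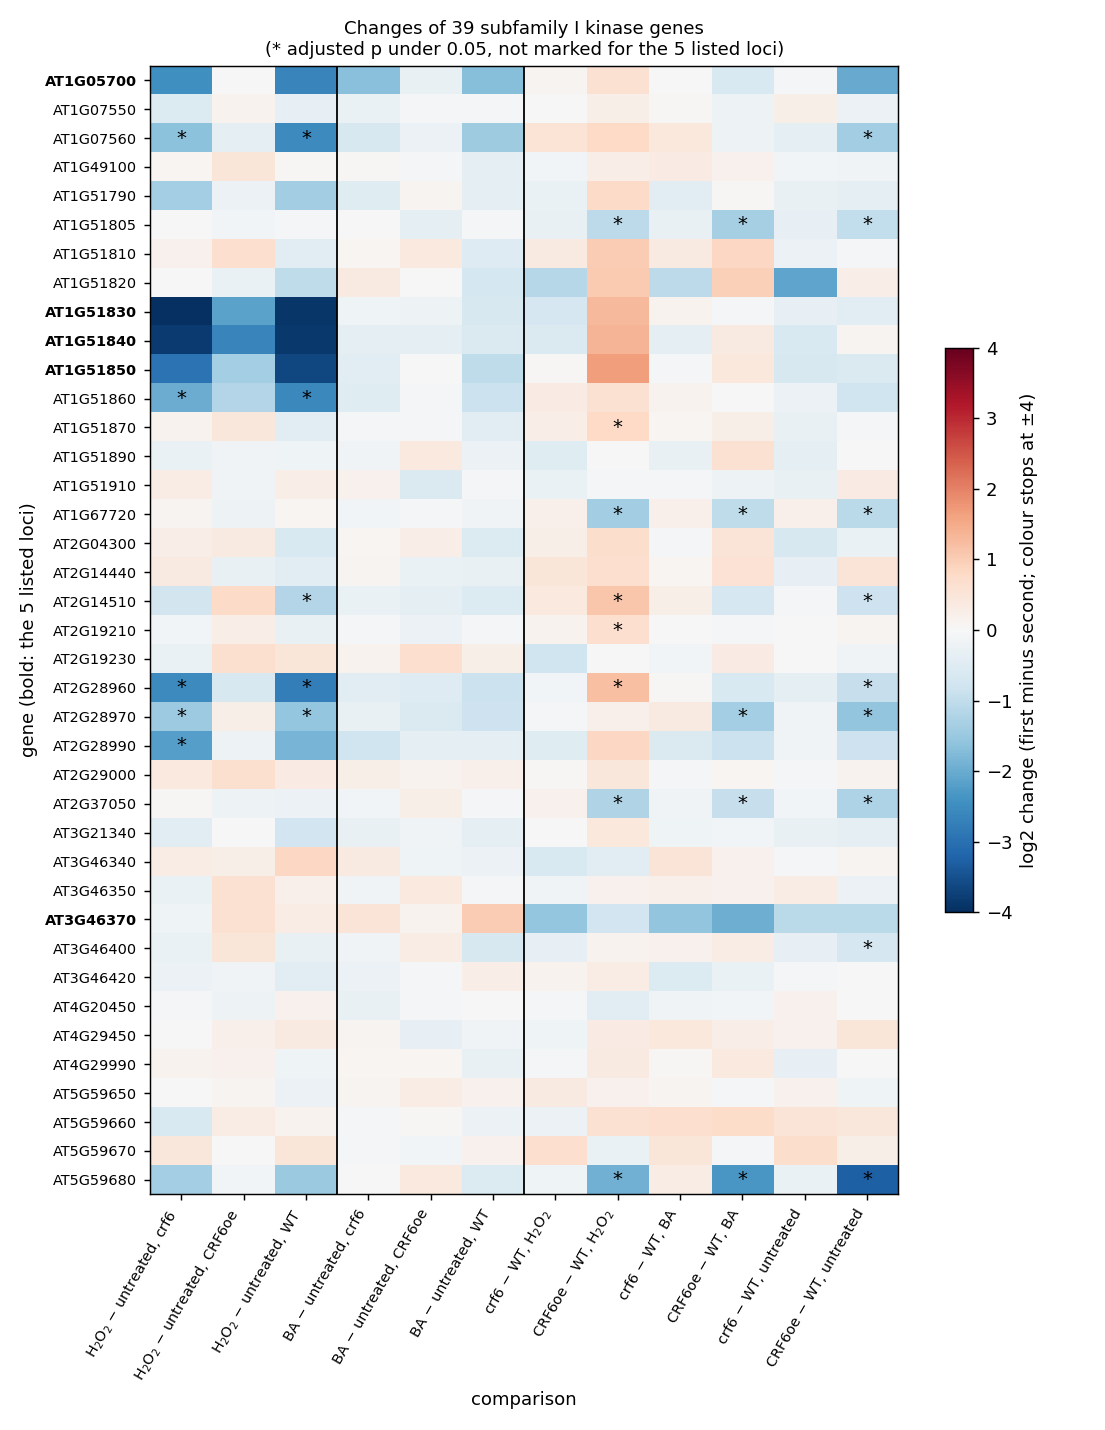
Log2 change (colour, ending at 4 either way) of the 39 measured subfamily I genes, in rows, for H2O2 or BA minus untreated in each genotype and for crf6 or CRF6oe minus WT in each condition, in columns. Asterisks mark adjusted p under 0.05 for the 34 genes other than the 5 loci, which are in bold. The H2O2 changes of the 3 neighbours in crf6 and WT lie between -4.23 and -2.95, and AT5G59680 reaches -3.26 in untreated CRF6oe minus WT.

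Between crf6 and WT, 0 of the 34 genes passed limma's test in any condition, with 2 with H2O2, 1 with BA and 2 untreated at an unadjusted p under 0.05, and 0% of all genes passed it. CRF6oe differed from WT in many genes of all kinds. Of the 34, 4 were higher and 4 lower in CRF6oe with H2O2 (14.6% of all genes called higher and 14.9% lower), 5 were lower with BA (12.7% called lower), and 9 were lower untreated (14.1% called lower). Leaving out 1 array in turn gave 5 to 9 calls with H2O2, 4 to 6 with BA and 5 to 7 untreated. AT5G59680, AT2G37050, AT1G67720 and AT1G51805, named after their values were seen, were lower in CRF6oe in all 3 conditions. The share of all genes called lower in all 3 was not counted. Some of the calls of AT1G67720 and AT1G51805 were lost when 1 array was left out. AT5G59680 was lower by the most, at -1.91 ± 0.38 with H2O2 (adjusted p = 0.0021), -2.32 ± 0.38 with BA (4.94e-04) and -3.26 ± 0.38 untreated (4.22e-05).

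The H2O2 response of 2 of the 34 genes was less negative in CRF6oe than in WT, where 0.332% of all genes were called in that direction. AT1G07560 differed by 2.18 ± 0.41 (adjusted p = 0.0367) and AT2G28960 by 2.12 ± 0.41 (0.0397). The first call was lost when any 1 of the 8 arrays was left out, the second when any of 7 of them was. With H2O2 set against BA, 2 of the 34 genes were lower in crf6 (3.26% of all genes called in either direction), 1 was higher in CRF6oe (5.47%), and 1 was higher and 3 were lower in WT (5.07%). In untreated seedlings AT1G07560 was lower in CRF6oe by 1.40 ± 0.29 (0.0025), and AT2G28960 by 0.93 ± 0.29 (0.0287), a call lost whichever of the 4 arrays was left out (up to 0.143).

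Root hair markers were read beside these values. Of 14 root hair genes on a marker list, 3 were measured: EXPA7 and EXPA18, which encode cell wall expansins, and AT4G26010. Their summed level, in log2, was 5.71 to 5.92 with H2O2, 6.01 to 6.47 with BA and 6.76 to 7.31 untreated in crf6. In CRF6oe it was 6.35 to 6.37, 6.12 to 6.23 and 6.55 to 6.70 under the same conditions, and in WT 5.52 to 5.68, 5.98 to 6.02 and 6.89 to 7.39. The sum was thus lowest under H2O2 and highest untreated in crf6 and WT, and lay in a narrower range in CRF6oe. AT4G26010 fell with H2O2 by 1.50 in crf6 (adjusted p = 0.0249) and by 2.01 in WT (0.0025), and its change was -0.10 in CRF6oe. It was the 1 marker of the 3 called with H2O2 in crf6 and WT, where 1.09% and 1.37% of all genes were called lower. In CRF6oe 0 of the 3 passed limma's test with H2O2, with 0 at an unadjusted p under 0.05. There 2.62% of all genes were called in either direction. With BA 0 of the 3 passed in any genotype, with 1 in crf6, 1 in CRF6oe and 3 in WT at that unadjusted p. The BA calls over all genes were 0.236%, 0.212% and 0.163%. A count of 0 of 3 is near these shares. The part of these cells in the levels of AT1G05700 or the neighbours was not tested.

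Of 3 guard cell markers, FMA, a regulator of guard cell fate, and AT1G22690 were measured. Their summed log2 level under H2O2 was 7.98 to 8.06 in crf6, 9.36 to 9.51 in CRF6oe and 8.41 to 8.51 in WT, and in untreated seedlings 8.44 to 8.77, 9.71 to 10.06 and 8.81 to 9.05. The sum was highest in CRF6oe in each condition, but the markers differed: AT1G22690 was higher in CRF6oe than in WT by 1.31 with H2O2, 1.24 with BA and 1.20 untreated, each past limma's threshold, while FMA gave -0.49, -0.13 and -0.02, none past it. Of all genes, 14.6% were called higher in CRF6oe than in WT with H2O2 and 11.1% untreated. The part of these markers in the genotype differences was not tested.

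Related receptor genes gave a comparison outside the subfamily. The CrRLK1L kinases also carry malectin-like regions, and 14 of 17 listed were measured. With H2O2, 0 of the 14 passed limma's test in any genotype, with 0 in crf6, 4 in CRF6oe and 6 in WT at an unadjusted p under 0.05. Of all genes, 1.09% were called lower and 0.864% higher in crf6, and 1.37% lower and 1.5% higher in WT. In CRF6oe 2.62% were called in either direction. With BA, 0 passed in any genotype, with 0, 1 and 2 at that unadjusted p. The BA calls over all genes were 0.236% in crf6, 0.212% in CRF6oe and 0.163% in WT. A count of 0 of 14 is near these shares. Between CRF6oe and WT under H2O2, 8 were lower and 0 higher (14.9% of all genes called lower and 14.6% higher), among them AT2G23200 (-2.28), AT5G39020 (-2.06), AT5G39030 (-1.86) and AT5G38990 (-1.62). Untreated, FER, a receptor of RALF peptides, was lower (-0.90) and ANX2, a kinase of pollen tube growth, was higher (0.82) in CRF6oe, against 14.1% of all genes called lower and 11.1% higher. Of the pattern-recognition list 2 of 13 were measured, EFR, a receptor for a bacterial elongation factor, and BIK1, a cytoplasmic kinase of immune signalling. BIK1 was lower in CRF6oe than in WT under H2O2 by 0.88 log2 units (adjusted p = 0.0436), and EFR was not called. Of 10 listed genes for RALF and other peptide ligands, 2 were measured, both of them RALF genes. Some RALF peptides are ligands of CrRLK1L kinases. Under H2O2 RALFL33 was lower in CRF6oe than in WT (-1.03) and RALFL19 was higher (0.82), both past the threshold, in the comparison where 14.9% of all genes were called lower and 14.6% higher.

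Genes whose levels ran most closely with each locus over the 18 arrays were taken from 3599 genes with an SD of at least 0.5. The 5 loci themselves were left out, and of their correlations with each other only those among the 3 neighbours are given above. For AT1G51830 the closest genes were AT2G37130 (Pearson's r 0.97), AT5G44380 (0.95) and AT2G28960 (0.92), the last a subfamily member. For AT1G51840 they were AT5G24230 (0.93), AT5G44380 (0.92) and AT2G37130 (0.92), and for AT1G51850 AT2G37130 (0.93), AT5G24230 (0.92) and AT4G12500 (0.91). AT2G37130 was thus among the 3 for each neighbour. For AT1G05700 they were AT5G49770 (0.93), AT3G01190 (0.92) and AT5G60530 (0.91), and for AT3G46370 AT5G02180 (0.86), AT2G29670 (0.77) and AT4G12980 (0.76). Within the subfamily AT1G05700 ran most closely with AT1G07560 (0.88), and AT3G46370 reached no more than 0.41. All these correlations are over the same 18 arrays and share the group differences.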

How the data were processed

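RNA of whole seedlings was measured on 18 one-colour arrays, biotin-labelled per the labels' protocols. The authors deposited 1 table of values, taken here as log2 from their range (0.79 to 14.26); the labels and headers state no normalization, background correction or array build. The values were used as deposited. Of 38408 features, 17481 were named by the platform annotation, 16722 of these by 1 gene, 759 by several; features without 1 gene were left out. A gene was read from its brightest feature (16548 genes). RefSeq, assembly TAIR10.1, served only for symbols and neighbour order (16574 features matched).

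A means model of the 9 groups was fitted with limma 3.58.1 (R 4.3.3), with 9 residual degrees of freedom. Contrasts, 19 in all, were tested two-sided, with Benjamini-Hochberg adjustment over all single-gene features and calls at 0.05; ± is the standard error of the fit. The fit was tested on simulated data. The 5 loci and all gene lists were chosen with earlier results of these data known, so no test is given for the 5 loci, also not within CRF6oe as first planned. Genes were named by rule: the 5 loci, subfamily genes called with a treatment, up to 4 called genes of the largest change per other list, and the 3 genes most correlated with each locus; exceptions are stated. Alternatives were other scalings, feature sets, arrays fitted, a replicate block and leaving out each array.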

Additional observations from a re-analysis of the deposited data

Results flagged for a closer look

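For 3 subfamily genes the H2O2 response of CRF6oe stood apart from that of WT, as a difference of log2 responses in which a positive value means a less negative response in CRF6oe. AT1G05700 gave 2.63 ± 0.41, a description only, because its WT response helped to choose it. Genes were flagged at an adjusted p under 0.05, so for AT1G05700 the flag adds no support. With 1 array left out its difference ran from 2.42 to 2.85, and its untreated CRF6oe level was already low. AT1G07560 gave 2.18 ± 0.41 (limma, adjusted p = 0.0367) and AT2G28960 gave 2.12 ± 0.41 (adjusted p = 0.0397). The AT1G07560 call was lost without any 1 of the 8 arrays (adjusted p up to 0.134) and the AT2G28960 call without 7 of the 8 (up to 0.143), and both were lost when only the arrays compared were fitted (0.0863 and 0.120).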

How the results depend on the processing

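The counts of called subfamily genes were recomputed under 7 other settings for each of 19 comparisons. Quantile normalization, the mean of all features of a gene, leaving out the dimmest 30% of features and the replicate block left all 19 counts within 1.5 times. Centring gave 1 call in place of 2 for H2O2 against BA in crf6, and moved the median of all genes by 0.147 for H2O2 against BA in WT and 0.130 in CRF6oe. Testing all features gave 3 in place of 5 for H2O2 in crf6, 1 in place of 2 for H2O2 against BA in crf6, 0 in place of 1 for H2O2 against BA in CRF6oe, and 0 in place of 2 for the difference of H2O2 responses between CRF6oe and WT. Fitting only the arrays compared gave 0, 0 and 2 for that difference, for H2O2 against BA in CRF6oe and for H2O2 against BA in WT (main count 4). Leaving out 1 array gave ranges of 1 to 3 calls for H2O2 in crf6, 3 to 5 in WT, 1 to 3 for H2O2 against BA in crf6, 0 to 2 in CRF6oe, 1 to 3 in WT, and 0 to 1 for the difference of H2O2 responses. For CRF6oe against WT the ranges were 5 to 9 with H2O2, 4 to 6 with BA and 5 to 7 untreated. The other comparisons stayed at 0. The cause of each shift was not tested.

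Signs near 0 turned for AT1G51850 with BA in CRF6oe (-0.029 with quantile normalization, -0.075 centred, and -0.85 to 0.89 with 1 array left out) and for AT1G05700 with H2O2 in CRF6oe (0.031 centred, -0.22 to 0.21). With 1 array left out the BA changes in CRF6oe also ran from -0.86 to 0.43 for AT1G51830, -1.24 to 0.53 for AT1G51840 and -0.12 to 0.40 for AT3G46370.

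Replicate numbers are shared between groups, but the labels do not say that a number marks a shared planting. Deviations of same-numbered arrays correlated between -0.20 and 0.33 over 36 pairs of groups, and the replicate block gave 4 calls with H2O2 in WT and 5 in crf6. With 2 arrays a group, the median standard error was 0.23 log2 units for 2 groups and 0.32 for a difference of responses.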
